A study of Arabidopsis thaliana with 18 samples.

Results

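The roots of wild-type Arabidopsis thaliana seedlings grown with full phosphate were examined after 8 h of trans-zeatin, a natural cytokinin, against untreated roots at the same phosphate level. The members are the 6 of 18 libraries whose labels name these conditions, 3 treated and 3 untreated. All seedlings were of the Columbia ecotype (Col-0) and had grown for 8 days in Murashige and Skoog medium with 625 µM phosphate, and the treated ones then received 5 µM trans-zeatin. The labels name no solvent control, so untreated means that no zeatin was given. The other libraries of the study cover cis-zeatin at the same dose and time, and all 3 treatments again in medium with 5 µM phosphate. Only poly(A) RNA was sequenced, and the labelled source is roots. Whether the 3 libraries of a group are separate cultures is not stated in the labels. The p-values therefore speak only of the spread among these libraries, which may be technical.

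Cytokinins are adenine derivatives that are bound by histidine kinase receptors (AHK proteins), which pass a phosphate through shuttle proteins (AHP) to the type-B response regulators, the transcription factors of the pathway. These switch on the type-A response regulator genes, whose products hold the signal back, and genes of cytokinin oxidases, which destroy the hormone. In roots the hormone is known for restraining the meristem and for lowering the expression of uptake transporters of several nutrients. trans-Zeatin and cis-zeatin carry the same hydroxylated side chain and differ in the geometry of its double bond.

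The 6 libraries held 21318794 to 21497073 counted reads each, and 19982 of the 24653 genes with a read were abundant enough to be tested. Levels are given in CPM, the count scaled to a common library total, and are not comparable between genes, because they are not divided by transcript length. A gene is said to have risen or fallen where edgeR's quasi-likelihood test, fitted over all 18 libraries, gave a Benjamini-Hochberg adjusted p under 0.05 over all tested genes. Fold changes are log2 differences with their standard error (SE). The markers fixed for root identity, among them the root β-glucosidase PYK10, the vacuolar water channel TIP2;3 and the Casparian strip protein CASP1, were present in every library. Because these are whole roots, fewer cells of a type and less RNA per cell cannot be told apart in any value below.

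Trans-zeatin changed 9875 genes, 49.4% of those tested. Of the tested genes 4826 rose, or 24.2%, and 5049 fell, or 25.3%. A total of 2078 genes (10.4% of those tested) changed at least 2-fold, and the median log2 change of all tested genes was -0.01. The 3 treated libraries lay wholly above the 3 untreated ones for 31.7% of tested genes and wholly below them for 32.6%, so a lack of overlap is common here. Each gene group below is read against these shares. The lists and their members were chosen with earlier results of these data known, so counts within them are not independent evidence.

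The cytokinin pathway answered with its feedback genes. All 10 tested type-A response regulators rose, with a median log2 change of 1.74. ARR5, the gene most often used as a cytokinin reporter, stood at 31.3, 34.9 and 36.7 CPM in the untreated libraries and at 244, 242 and 250.2 CPM after trans-zeatin. The treated libraries agree closely and lie far above the untreated ones, a log2 change of 2.84 ± 0.11 (adjusted p 8.06e-14, edgeR). ARR16 went from 1.67, 1 and 2.01 CPM to 27.4, 24.9 and 27.8 CPM, a log2 change of 4.09 ± 0.19. ARR17 had no read in 1 untreated library and 3.41, 3.3 and 4.17 CPM after treatment. The smallest rise in the list belonged to ARR9, which was already at 61.9, 62.3 and 60 CPM and reached 84.8, 83.1 and 83.4 CPM (0.45 ± 0.08). Between these ends lay ARR15 (3.43 ± 0.21), ARR3 (1.85 ± 0.15), ARR7 (1.62 ± 0.10), ARR6 (1.32 ± 0.08), ARR4 (1.03 ± 0.07) and ARR8 (0.93 ± 0.09), all on the log2 scale. The treated and untreated libraries did not overlap for any type-A gene.

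**Figure D1:**
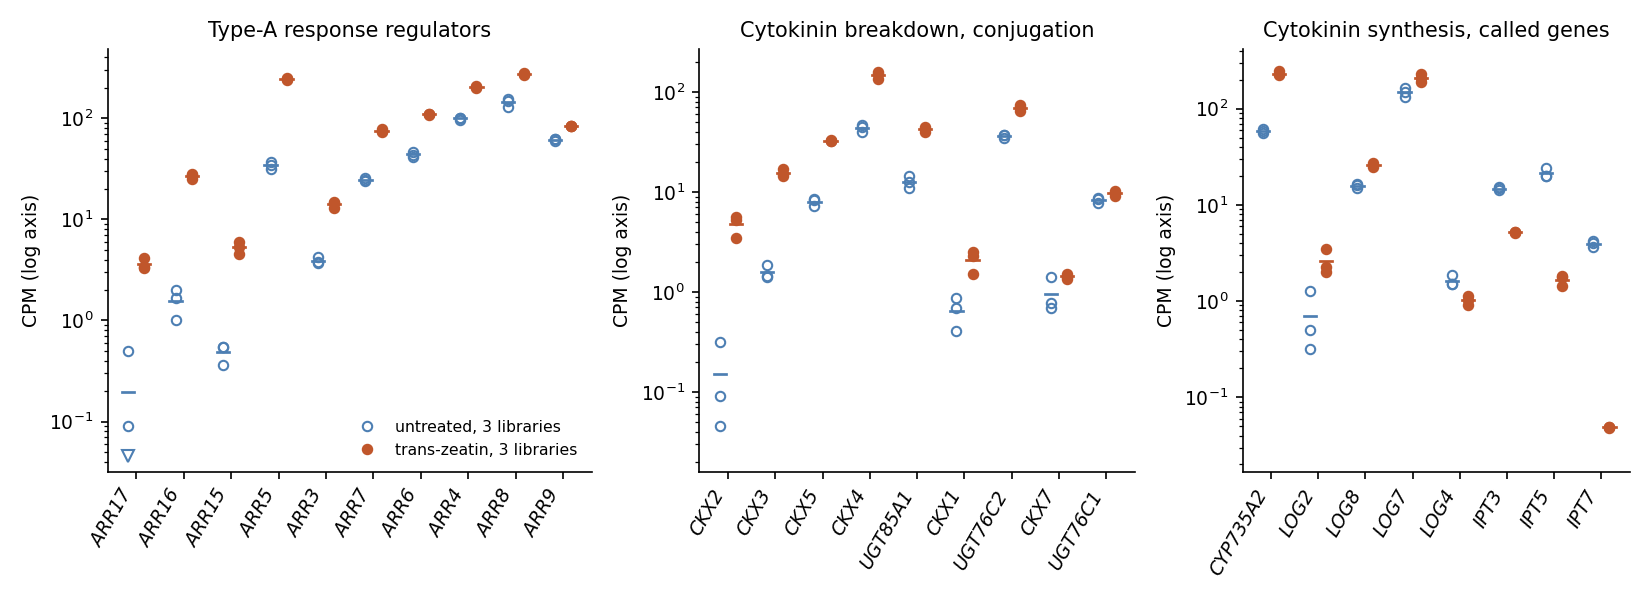
Level of cytokinin genes in each of the 6 libraries, in CPM on a log axis, for the type-A response regulators, the tested breakdown and conjugation genes, and the synthesis genes past the test's threshold. Open circles are untreated libraries, filled circles trans-zeatin libraries, short lines the group means, and the triangle marks a library with 0 reads. The 10 type-A genes are higher in every treated library, while IPT3, IPT5 and IPT7 are lower.

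The promoter windows of ARR7, ARR15 and ARR16 are printed because they are the type-A windows that hold AGATTC. They were chosen for that match and not for the size of the rise, and they show where short words that start with AGAT, the kind of word the DNA-binding domain of type-B regulators recognises, occur in them. Each window runs from 250 bases before the annotated transcript start to 50 after it, 5′ to 3′ along the gene, from RefSeq's TAIR10.1 assembly, with the matched letters in capitals on either strand. The first word searched, on both strands, was AGATCT, which reads the same on either. The second was AGATAC. The third was AGATTC, and no matches overlap in these windows. ARR7 lies on the minus strand (chr1:6579265-6579564), ARR15 on the minus strand (chr1:28132976-28133275) and ARR16 on the plus strand (chr2:16969423-16969722). 
ARR7: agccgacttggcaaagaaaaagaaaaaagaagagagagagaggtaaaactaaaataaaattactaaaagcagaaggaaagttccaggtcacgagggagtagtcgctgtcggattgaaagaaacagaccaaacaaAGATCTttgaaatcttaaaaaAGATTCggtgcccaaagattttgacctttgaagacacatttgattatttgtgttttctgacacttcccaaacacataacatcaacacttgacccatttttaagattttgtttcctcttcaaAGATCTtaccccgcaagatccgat
ARR15: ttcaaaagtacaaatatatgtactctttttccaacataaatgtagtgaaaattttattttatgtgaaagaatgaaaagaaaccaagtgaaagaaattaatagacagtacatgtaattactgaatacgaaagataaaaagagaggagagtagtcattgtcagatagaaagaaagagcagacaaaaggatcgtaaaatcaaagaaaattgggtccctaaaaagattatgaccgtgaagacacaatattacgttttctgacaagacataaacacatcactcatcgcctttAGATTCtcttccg
ARR16: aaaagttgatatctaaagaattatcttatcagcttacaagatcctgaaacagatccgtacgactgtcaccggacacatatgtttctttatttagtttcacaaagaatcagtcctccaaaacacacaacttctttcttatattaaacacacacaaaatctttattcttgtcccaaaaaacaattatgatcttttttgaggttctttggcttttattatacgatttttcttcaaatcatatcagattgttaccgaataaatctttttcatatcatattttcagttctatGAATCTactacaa
AGATTC was found in the windows of 3 of the 10 type-A genes, against 19.51% of 27443 gene windows of this length. AGATCT was in 1 of 10 against 7.383%, and AGATAC in 2 of 10 against 11.49%. The window of ARR5, the type-A gene with the smallest adjusted p, held none of the 3 words. These are matches of letters and say nothing about binding.

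The genes that remove active cytokinin rose as well. Of 9 tested breakdown and conjugation genes, 7 rose and none fell, with a median log2 change of 1.74. The cytokinin oxidase CKX2 was nearly silent in untreated roots at 0.316, 0.0455 and 0.0914 CPM and stood at 5.28, 5.66 and 3.43 CPM after trans-zeatin, a log2 change of 4.93 ± 0.41. CKX3 went from 1.85, 1.46 and 1.42 CPM to 16.9, 15.3 and 14.4 CPM (3.3 ± 0.15). The oxidases CKX5 (2.03 ± 0.08), CKX4 (1.77 ± 0.10) and CKX1 (1.69 ± 0.32) rose too, as did UGT85A1, a glucosyltransferase that caps the zeatin side chain (1.74 ± 0.14), and UGT76C2, which attaches glucose to the ring (0.95 ± 0.09). UGT76C1 (0.22 ± 0.10) and CKX7 (0.58 ± 0.33) did not pass the test. CKX6 was too scarce to be tested, with 2 reads in the untreated libraries together and 27 in the treated ones.

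Of 15 tested synthesis genes, 4 rose, 4 fell and 7 did not pass, shares close to those over all tested genes. The isopentenyltransferases make the first cytokinin precursor, and 3 of the 5 tested ones fell. IPT5 dropped from 24, 20.2 and 19.9 CPM to 1.78, 1.43 and 1.81 CPM, a log2 change of -3.67 ± 0.17. IPT3, known as the nitrate-responsive member, dropped from 14.3, 15.2 and 14.9 CPM to 5.23, 5.07 and 5.24 CPM (-1.51 ± 0.12). IPT7 had 262 reads over the untreated libraries and 3 over the treated ones, a ratio of 87.3 with an exact 95% counting interval of 29.56 to 426.2. CYP735A2 rose. This enzyme hydroxylates the side chain and so commits the precursor to trans-zeatin, and its gene went from 55.9, 58 and 61.9 CPM to 229.8, 222 and 244 CPM (1.99 ± 0.11). Among the LOG genes, which release the active base, LOG2 (1.88 ± 0.42), LOG8 (0.73 ± 0.10) and LOG7 (0.49 ± 0.12) rose. LOG4 fell by 0.66, but without untreated replicate 2 its adjusted p by edgeR was 0.0952, without treated replicate 1 it was 0.0978 and without treated replicate 2 it was 0.0523.

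Apart from AHP6 and CRF1, the genes in this paragraph changed by less than 1.74 on the log2 scale, the type-A median. The receptors AHK4 (0.58 ± 0.10) and AHK3 (0.33 ± 0.10) rose, and AHK2 did not pass the test (-0.07 ± 0.09). AHP1 (0.81 ± 0.10) and AHP3 (0.45 ± 0.10) rose, while AHP6, the pseudo-phosphotransfer protein that blocks the relay, fell from 0.812, 0.728 and 0.64 CPM to 0.048, 0.148 and 0.147 CPM (-2.62 ± 0.51). AHP2 (0.17 ± 0.08) and AHP5 (0.09 ± 0.09) did not pass. Of the 6 tested type-B regulators, ARR12 rose (0.58 ± 0.07), ARR10 fell (-0.75 ± 0.07), and ARR1 (-0.01 ± 0.07), ARR2 (-0.16 ± 0.07), ARR11 (-0.16 ± 0.11) and ARR14 (-0.04 ± 0.39) did not pass. Of the cytokinin response factors, a branch of AP2-type factors, CRF5 (0.84 ± 0.12) and CRF6 (0.34 ± 0.10) rose, CRF1 (-2.04 ± 0.54), CRF2 (-0.76 ± 0.19) and CRF3 (-0.86 ± 0.15) fell, and CRF4 did not pass (0.18 ± 0.13). The call on CRF6 was lost without untreated replicate 3, where edgeR's adjusted p was 0.0656.

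The largest changes were ranked next. Among genes above the median abundance whose groups did not overlap, the 12 largest rises began with AT1G21400, annotated as a thiamin diphosphate-binding protein, which went from 3.47, 4.28 and 4.8 CPM to 69.8, 70.8 and 63.6 CPM (4.02 ± 0.16). SEN1, ASN1 and BCAT2, described next, were among them. The sugar exporter gene SWEET12 went from 10.6, 17.39 and 16.1 CPM to 130.1, 122 and 116 CPM (3.06 ± 0.21). ST4B, a sulfotransferase gene, went from 52.8, 65 and 80.4 CPM to 586, 685 and 687 CPM (3.3 ± 0.14). The others were the acyltransferase AT2G25150 (3.79 ± 0.20), the dirigent-like AT4G11190 (2.98 ± 0.20), YLS9 (2.95 ± 0.17), the MATE efflux carrier ZF14 (2.93 ± 0.11), AT1G19530 (2.88 ± 0.22) and AT2G34610 (2.85 ± 0.17). The 12 largest falls held NRT2.1, NRT1.1, IRT1, TIP2;3, IPMI1 and CYP83A1, described below, and were led by AGP30, an arabinogalactan protein of the root cell wall. AGP30 dropped from 173, 127 and 113 CPM to 4.03, 5.56 and 4.8 CPM (-4.84 ± 0.27). The glutathione transferase GSTF14 dropped from 83.4, 92.6 and 112 CPM to 3.94, 3.59 and 5 CPM (-4.52 ± 0.16). The remaining falls were those of the TRAF-like AT4G01390 (-3.28 ± 0.22) and AT3G20380 (-2.89 ± 0.11), AT2G22122 (-3.17 ± 0.12) and the peroxidase Prx37 (-3.00 ± 0.12).

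**Figure D2:**
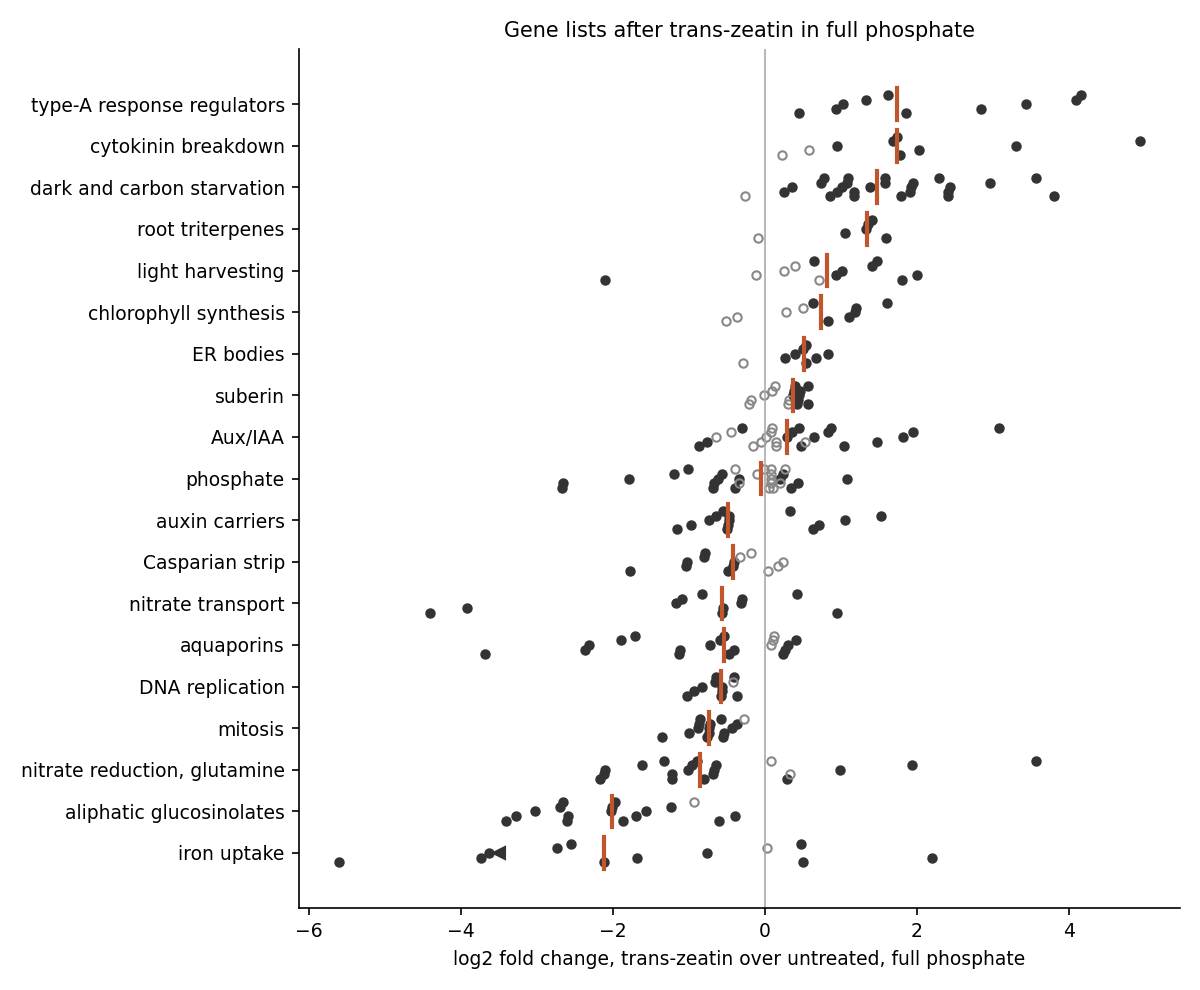
Log2 fold change of trans-zeatin over untreated roots in full phosphate for the tested members of 19 gene lists. Filled points passed edgeR's threshold, open points did not, the orange bar is the list median, and the left-pointing triangle is a gene with no read in the treated libraries, drawn at its bound. Medians run from 1.74 for the type-A response regulators to -2.12 for iron uptake.

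The listed genes known to be induced by darkness or lack of sugar rose almost without exception. Because the list was chosen with earlier results of these data known, its count does not speak for all such genes. Of 26 tested members, 25 rose, none fell, and the median log2 change was 1.48. SEN1, a classic marker of dark-treated and senescing tissue, was at 6.05, 8.42 and 10.5 CPM in untreated roots and at 121, 116 and 109.7 CPM after trans-zeatin. Every treated library lies more than 10-fold above every untreated one, a log2 change of 3.80 ± 0.21 (adjusted p 1.03e-11, edgeR). ASN1, the asparagine synthetase that stores nitrogen when carbon is short, went from 5.1, 6.87 and 11.4 CPM to 118, 84.3 and 73.2 CPM (3.56 ± 0.24). Its treated libraries spread more widely than those of SEN1 and still lie above every untreated one. BCAT2, a mitochondrial transaminase that opens branched-chain amino acid breakdown, went from 7.4, 11.9 and 12.6 CPM to 83.2, 85.1 and 79.1 CPM (2.96 ± 0.15).

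The later steps of branched-chain amino acid breakdown rose with BCAT2. They included DIN4, a subunit of the keto acid dehydrogenase, at 16.6, 17.61 and 18.4 CPM before and 54.4, 50.4 and 52.3 CPM after (1.58 ± 0.10), and the methylcrotonyl-CoA carboxylase subunit MCCB (1.78 ± 0.10). Outside the rule for named genes, and chosen after their values were seen, DIN3 (2.4 ± 0.15), isovaleryl-CoA dehydrogenase IVD (1.58 ± 0.10) and the partner subunit MCCA (1.93 ± 0.14) rose too. Within the rule, the trehalose-phosphate synthase homologue TPS11 went from 35.2, 41.7 and 47.2 CPM to 195, 215 and 195 CPM (2.29 ± 0.11), and DIN9, a mannose-phosphate isomerase, from 5.96, 7.14 and 6.4 CPM to 23.2, 28.8 and 23.2 CPM (1.95 ± 0.12). EXL1 was the one tested member not to pass the test (-0.26 ± 0.32). It is named after its values were seen. In parallel, 5 of 9 tested trehalose-phosphate phosphatase genes fell and 2 rose. TPPB fell from 119.8, 103 and 95.6 CPM to 23.8, 21.7 and 24.2 CPM (-2.19 ± 0.08) and TPPE by 1.57 on the log2 scale, while TPPJ (2.15 ± 0.11) and TPPH (1.19 ± 0.11) rose.

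Promoter windows of 3 of these genes are shown, in the same format, for the word TATCCA, the core of the sugar-repressed element described in cereal amylase promoters, and the G-box CACGTG. SEN1 lies on the plus strand (chr4:16944628-16944927), ASN1 on the minus strand (chr3:17441382-17441681) and BCAT2 on the plus strand (chr1:3287837-3288136), where the capitals read TGGATA because the match is on the other strand.
SEN1: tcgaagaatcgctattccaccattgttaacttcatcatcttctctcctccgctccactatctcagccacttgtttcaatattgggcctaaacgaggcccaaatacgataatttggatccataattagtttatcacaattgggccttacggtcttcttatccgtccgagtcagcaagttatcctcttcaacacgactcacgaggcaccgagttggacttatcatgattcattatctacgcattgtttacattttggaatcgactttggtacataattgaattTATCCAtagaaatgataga
ASN1: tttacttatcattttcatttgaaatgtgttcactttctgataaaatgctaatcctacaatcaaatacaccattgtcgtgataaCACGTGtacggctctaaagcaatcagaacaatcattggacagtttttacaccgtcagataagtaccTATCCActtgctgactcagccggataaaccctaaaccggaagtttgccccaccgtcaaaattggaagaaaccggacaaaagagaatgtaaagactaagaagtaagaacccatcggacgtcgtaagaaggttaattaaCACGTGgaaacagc
BCAT2: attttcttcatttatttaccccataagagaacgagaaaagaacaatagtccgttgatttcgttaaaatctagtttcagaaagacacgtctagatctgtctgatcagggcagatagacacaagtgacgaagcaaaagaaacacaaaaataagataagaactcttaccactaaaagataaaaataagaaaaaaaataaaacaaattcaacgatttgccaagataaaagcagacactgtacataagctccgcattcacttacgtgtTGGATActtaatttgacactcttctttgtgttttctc
TATCCA occurred in the windows of 12 of the 26 genes, against 16.11% of the 27443 windows. CACGTG occurred in 2 of 26, ASN1 and DIN11, against 7.678%. These shares describe the windows and were not tested.

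Many genes of the photosynthetic apparatus rose in these roots. Of 10 tested chlorophyll synthesis genes, 6 rose and none fell, with a median log2 change of 0.73. CHLM, a methyltransferase of the magnesium branch, went from 11, 14.9 and 12.7 CPM to 39.4, 38.5 and 39.1 CPM (1.60 ± 0.11). HEMA1, the glutamyl-tRNA reductase at the head of the pathway, went from 40.4, 38.5 and 44.4 CPM to 90, 98.7 and 90.2 CPM (1.18 ± 0.09). Of 12 tested light-harvesting genes, 7 rose and 1 fell, with LHCA4 going from 15.9, 23.9 and 18.9 CPM to 70.2, 72.5 and 62.3 CPM (1.8 ± 0.14) and LHCB4.1 from 12, 13.8 and 14.8 CPM to 38.7, 37.1 and 32 CPM (1.41 ± 0.12). The GATA factor CGA1, which promotes greening and is a known cytokinin target, rose (3.21 ± 0.51). Of the 4 tested greening regulators it was the one that rose, while GLK1 fell from 0.541, 1.27 and 0.548 CPM to 0.576, 0.0492 and 0.147 CPM (-1.58 ± 0.54), a call lost without untreated replicate 2 (adjusted p 0.159, edgeR), treated replicate 2 (0.105) or treated replicate 3 (0.0833). GLK1 is named after its value was seen. The rise of LHCB2.1 (1.48 ± 0.50) was lost without untreated replicate 1 (adjusted p 0.102, edgeR), untreated replicate 3 (0.0905) or treated replicate 1 (0.129), and its reads may be shared with near-identical copies. Light-harvesting genes also mark shoot tissue. The summed level of the 14 listed genes was 47.7, 90.8 and 57.2 CPM in the untreated libraries and 178, 157 and 135 CPM in the treated ones, while the 4 Rubisco small subunit genes, the other shoot marker, summed to 4.96, 18.15 and 5.80 CPM against 28.1, 18.8 and 14.6 CPM. Untreated replicate 2 was the highest untreated library for both lists, and its Rubisco sum exceeded that of 1 treated library. Without it, 10 light-harvesting genes rose and none fell, and without untreated replicate 1, untreated replicate 3 or treated replicate 1 the number of rises was 5. The single fall was lost without treated replicate 2 or 3. Whether shoot tissue in the samples contributed was not tested.

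Most genes of nitrate and ammonium transport fell. The transceptor NRT1.1, the main dual-affinity nitrate transporter and sensor, stood at 1210, 991 and 988 CPM in untreated roots and at 67.9, 60.7 and 80.8 CPM after trans-zeatin. All 3 treated libraries are more than 10-fold below every untreated one, a log2 change of -3.93 ± 0.15 (adjusted p 3.63e-14, edgeR). NRT2.1, the main high-affinity transporter, dropped from 75.2, 81.7 and 76.8 CPM to 3.69, 3.25 and 4.07 CPM (-4.41 ± 0.29), and its partner NRT3.1 fell by 1.09 on the log2 scale. Of 11 tested nitrate transport genes, 9 fell and 2 rose, namely the vacuolar nitrate antiporter CLCA (0.95 ± 0.10) and the xylem loader NRT1.5 (0.42 ± 0.10), which is named after its value was seen. Leaving out untreated replicate 2, the one with the highest shoot markers, left 8 falls. All 3 tested ammonium transporters fell, AMT1;3 (-1.19 ± 0.13), AMT1;2 (-0.95 ± 0.13) and AMT2;1 (-0.30 ± 0.10). The call on AMT2;1 was lost without untreated replicate 3 (adjusted p 0.0549, edgeR) or treated replicate 1 (0.127).

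Most assimilation genes fell too. Of 20 tested genes of nitrate reduction and glutamine metabolism, 14 fell and 4 rose, with a median log2 change of -0.85. Nitrite reductase NIR1 dropped from 483, 435 and 443 CPM to 94.2, 103 and 115 CPM (-2.12 ± 0.10), and the root ferredoxin reductase RFNR2, which feeds it electrons, by 2.11 on the log2 scale. The cytosolic glutamine synthetase GLN1;2 fell from 7134, 6332 and 6656 CPM to 1424, 1425 and 1614 CPM (-2.17 ± 0.13), and the plastid enzyme GLN2 fell too (-1.33 ± 0.07). Glutamate dehydrogenase GDH1, which runs mainly toward ammonium release, moved the other way, from 79.4, 96.6 and 98.8 CPM to 354, 342 and 349 CPM (1.93 ± 0.12). Among 14 nitrate regulators, 6 rose and 7 fell, but without untreated replicate 1 only 3 rose, and without treated replicate 2 or 3 there were 4. The repressors of nitrate genes did not move as 1 group, with BT2 (1.14 ± 0.12) and HHO2 (0.68 ± 0.07) rising and HHO1 (-1.29 ± 0.09) and LBD37 (-0.71 ± 0.07) falling.

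**Figure D3:**
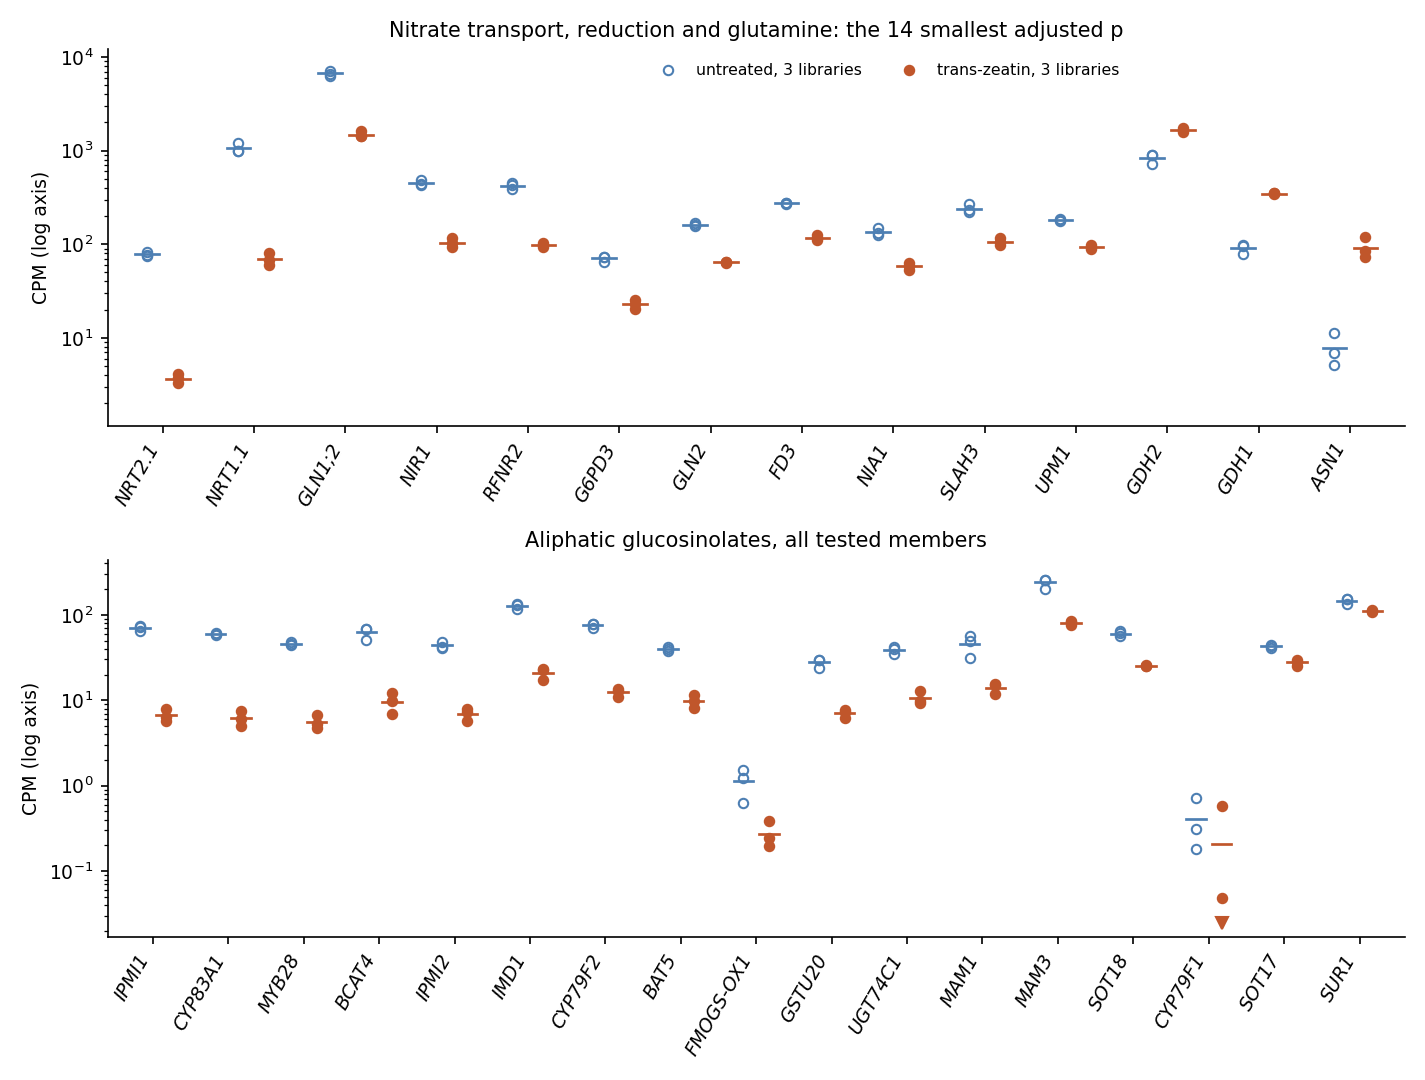
Level in each of the 6 libraries, in CPM on a log axis, of the 14 nitrate and glutamine genes with the smallest adjusted p and of the tested aliphatic glucosinolate genes. Open circles are untreated libraries, filled circles trans-zeatin libraries, short lines the group means, and the triangle marks a library with 0 reads. NRT1.1, NRT2.1 and MYB28 lie far below their untreated levels, while GDH1 and ASN1 lie above theirs.

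Most iron uptake genes fell. Of 13 tested uptake genes, 9 fell and 3 rose, and the median log2 change was -2.12, the lowest of the lists plotted. IRT1, the root's main ferrous iron transporter, dropped from 98.7, 81.5 and 72.1 CPM to 7.97, 6.99 and 3.97 CPM (-3.73 ± 0.23). FRO2, the ferric reductase that works with it, dropped from 42.3, 37 and 33.2 CPM to 3.26, 3.25 and 2.5 CPM (-3.64 ± 0.18). Their master regulator FIT fell by 1.69 on the log2 scale. CYP82C4 and S8H act in turn on coumarins that mobilise iron. CYP82C4 dropped from 17.3, 14.1 and 9.73 CPM to 0.432, 0.197 and 0.196 CPM (-5.60 ± 0.33), and S8H had 102 reads over the untreated libraries and none over the treated ones, at least 11.3-fold lower with a floor of 3 counts per library. S8H was chosen after its values were seen, and with it at this bound the list median stays at -2.12. Against this direction IRT2, a close relative of IRT1 located inside the cell, rose (2.2 ± 0.18). Of 18 regulators and storage genes, 7 rose and 6 fell, with the ferritins FER1 (0.80 ± 0.11) and FER3 (-0.84 ± 0.11) moving apart.

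Phosphate and sulfate genes gave a mixed picture. Of 28 tested phosphate genes, 5 rose and 11 fell, with a median of -0.06. When 1 library was left out the list median lay between -0.37 (without untreated replicate 2) and 0.01 (without treated replicate 1), and without untreated replicate 1 the rises numbered 3. PHT1;4, an uptake carrier of the root surface, fell from 53.6, 47.7 and 43 CPM to 7.39, 8.12 and 7.2 CPM (-2.67 ± 0.10). The xylem exporters PHO1 and PHO1;H1 fell as well, PHO1 from 615, 548 and 546 CPM to 273, 237 and 237 CPM (-1.19 ± 0.12) and PHO1;H1 from 30.3, 24.7 and 23.2 CPM to 3.79, 4.28 and 4.31 CPM (-2.66 ± 0.16). The regulator WRKY75 rose (1.08 ± 0.10). Without untreated replicate 2, 10 phosphate genes fell. Of 13 sulfate genes 7 fell and 1 rose, among them the transporter SULTR2;1 (-1.56 ± 0.14) and the reductase APR1 (-0.69 ± 0.10) on the falling side and LSU1 (0.92 ± 0.23) on the rising side, the last of these named after its value was seen.

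Aliphatic glucosinolates, the methionine-derived defence compounds, had lower transcript levels along nearly the whole pathway. Of 17 tested genes, 16 fell and none rose, with a median log2 change of -2.02. MYB28, the regulator that switches the pathway on, dropped from 47.7, 45.2 and 44.6 CPM to 6.72, 4.73 and 5.29 CPM (-3.04 ± 0.11). The chain elongation gene IPMI1 dropped from 65.3, 72.5 and 74.8 CPM to 6.38, 5.71 and 7.94 CPM (-3.41 ± 0.15) and the core enzyme CYP83A1 from 60.3, 57.3 and 61.9 CPM to 7.58, 4.97 and 5.98 CPM (-3.27 ± 0.16). The groups do not overlap for any of these 3 genes. IMD1 (-2.60 ± 0.13), CYP79F2 (-2.60 ± 0.13) and SOT18 (-1.24 ± 0.07) fell with them, and CYP79F1, named after its value was seen, was scarce and did not pass (-0.94 ± 0.80).

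Most water channel genes fell. Of 19 tested aquaporin genes, 12 fell and 4 rose, with a median of -0.55 on the log2 scale. The vacuolar channel TIP2;3 dropped from 152, 169 and 181 CPM to 14.6, 12.5 and 11.9 CPM (-3.69 ± 0.15), with TIP2;2 (-2.32 ± 0.12) and TIP1;1 (-1.90 ± 0.13) alongside. The plasma membrane channel PIP1;1 dropped from 808, 939 and 995 CPM to 269, 281 and 285 CPM (-1.72 ± 0.12). PIP2;2 also fell (-1.14 ± 0.10), although it shares long stretches with PIP2;3 and the reads of the pair may be split between them. Without untreated replicate 2 there were 10 falls and 2 rises. The barrier genes of the endodermis differed between the lists. Of 13 Casparian strip genes 8 fell and none rose, CASP1 going from 207, 211 and 219 CPM to 92.1, 108 and 108 CPM (-1.05 ± 0.16) and the sealing peptide CIF1 falling by 1.78 on the log2 scale. Of 16 suberin genes 9 rose and none fell, by small amounts such as 0.56 ± 0.13 for FAR5, a reductase that makes suberin alcohols, and 0.56 ± 0.13 for the regulator MYB93. Without untreated replicate 2, 7 suberin genes rose.

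Cell division genes fell modestly but together. Of 15 mitotic genes, 14 fell and none rose, with a median log2 change of -0.74. CYCB1;1, a B-type cyclin active at mitosis, dropped from 8.03, 7.78 and 7.63 CPM to 2.69, 3.59 and 2.89 CPM (-1.35 ± 0.13). HINKEL, a kinesin of the cell plate, dropped from 27.5, 26.4 and 25.5 CPM to 13.6, 11.9 and 14 CPM (-1 ± 0.10). Of 11 DNA replication genes, 10 fell and none rose, with a median of -0.58. The replication licensing factor CDT1A dropped from 20, 20.1 and 19.5 CPM to 10.9, 10.6 and 9.46 CPM (-0.94 ± 0.11), the sliding clamp PCNA1 from 18.4, 17.61 and 16.9 CPM to 8.06, 9.36 and 8.43 CPM (-1.03 ± 0.13), and the ribonucleotide reductase subunit TSO2 from 44.9, 38.7 and 36.6 CPM to 21.9, 22.3 and 23.6 CPM (-0.83 ± 0.10). Each of these 5 genes was lower in every treated library than in any untreated one. CYCD3;2, a D-type cyclin of a group known to be induced by cytokinin, rose (0.77 ± 0.10). Its rise was the largest among 17 tested genes of cell cycle entry and exit. Of those 17 genes 4 rose and 6 fell, with a median of -0.21. Of 8 root meristem regulators 3 fell, SCR (-0.70 ± 0.12), SHR (-0.35 ± 0.09) and PLT2 (-0.61 ± 0.23), and none rose. The call on PLT2 was lost without untreated replicate 1 (adjusted p 0.105, edgeR), untreated replicate 2 (0.0692), treated replicate 1 (0.0562) or treated replicate 2 (0.127). The summed level of the 8 regulators, which also mark the root tip, was 181, 182 and 166 CPM before and 133, 135 and 139 CPM after treatment. Whether a smaller share of root tips in the samples contributed to the cell division values was not tested.

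Genes of other hormone pathways changed as well. Of 25 tested Aux/IAA genes, which encode repressors of auxin response, 12 rose and 3 fell. IAA17 went from 90.3, 86 and 92.2 CPM to 234, 253 and 261 CPM (1.48 ± 0.08). IAA3, a known target of type-B regulators at the meristem boundary, rose by 1.81 on the log2 scale, whereas IAA14 (-0.87 ± 0.07) and IAA7 (-0.77 ± 0.09) fell. Of 14 auxin carriers 5 rose and 9 fell, with PIN4 at 24.5, 27.2 and 28.2 CPM before and 74.4, 79.1 and 77.6 CPM after (1.53 ± 0.12), against falls of PIN2 (-0.97 ± 0.14), PIN3 (-0.65 ± 0.10) and the importer AUX1 (-0.55 ± 0.08). Auxin synthesis genes fell in part, the transaminase TAR2 from 12, 11.2 and 11.3 CPM to 3.36, 3 and 2.84 CPM (-1.91 ± 0.13) and the monooxygenase YUC5 by 2.22 on the log2 scale. Of the 15 tested auxin metabolism genes 4 rose and 8 fell, and without treated replicate 2 the rises numbered 2.

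In ethylene synthesis most tested ACC synthase genes, which encode the committed step, rose, and ACS6 did not pass the test (-0.09 ± 0.09). ACS7 went from 7.08, 7.05 and 9 CPM to 34.7, 40.2 and 36.5 CPM (2.27 ± 0.15), and ACS5 rose too (1.44 ± 0.15). The following enzyme, ACC oxidase, had members on both sides. ACO5 fell from 280.5, 320.5 and 282 CPM to 89.9, 95 and 93.2 CPM (-1.67 ± 0.07) and ACO1 (-1.13 ± 0.09) fell, whereas ACO3 rose (1.46 ± 0.11). In all, 7 of the 12 tested synthesis genes rose and 3 fell. Of 17 gibberellin genes 7 rose and 5 fell, with 3 falls without treated replicate 1 or 3, and the largest value was that of GA2ox2, a gibberellin-inactivating enzyme, at 1.72, 2.05 and 1.97 CPM before and 17, 19.4 and 19.9 CPM after (3.29 ± 0.12). Of 14 abscisic acid genes 10 rose and 3 fell, among them both an inactivating hydroxylase, CYP707A1 (1.4 ± 0.10), and a synthesis enzyme, NCED5, with 3 reads before and 51 after, a ratio of 17 with an exact 95% counting interval of 5.5 to 85.2.

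Trans-zeatin and cis-zeatin were compared at the same dose and time in full phosphate, 1 pair of compounds, with p-values adjusted over all tested genes. The isomers differed at 8232 genes, 41.2% of those tested. Trans-zeatin libraries were higher for 4137 genes, 20.7%, and lower for 4095, 20.5%. At least 2-fold differences were found for 1004 genes, 5.02%. Both isomers are set against the same 3 untreated libraries, so their separate responses are given side by side and not correlated. Of all tested genes cis-zeatin raised 12.7% and lowered 13.5%. The sequencing report shows a further difference. Reads discarded for undetermined bases numbered 81544 to 85178 in the 6 untreated and trans-zeatin libraries and 23060 to 25354 in the 3 cis-zeatin libraries, so a difference in handling and the isomer cannot be told apart in this contrast. The trans-zeatin response itself lies within libraries of like values.

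The type-A response regulators differed little between the isomers. Cis-zeatin raised 9 of the 10 type-A genes, with a median log2 change of 1.76, against 1.74 for trans-zeatin. The direct differences ran from -0.13 for ARR7 to 0.31 for ARR17, with 95% intervals that stayed within -0.34 to 0.83. ARR5 was higher after trans-zeatin by 0.29 ± 0.10 (interval 0.07 to 0.51) and ARR9 by 0.26 ± 0.08 (interval 0.10 to 0.43), and the other 8 genes did not pass the test, which does not show that the isomers act alike on them. The call on ARR5 was lost when any 1 of the trans-zeatin libraries or of cis-zeatin replicates 1 and 2 was left out, with edgeR's adjusted p between 0.0579 and 0.116. Of the 9 tested breakdown and conjugation genes 3 were higher after trans-zeatin and 1 lower, beside 41.2% of all tested genes differing either way. CKX3 was higher by 0.47 ± 0.12, UGT85A1 by 0.60 ± 0.13 and CKX2 by 0.64, and CKX5 was lower by 0.41. The call on CKX2 was lost without trans-zeatin replicate 1 or 2 or any 1 cis-zeatin library. Its adjusted p by edgeR was then between 0.0579 and 0.193. IPT5 was lower after trans-zeatin by 0.92 (interval -1.35 to -0.49).

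The listed dark and carbon starvation genes differed between the isomers. The list was chosen with earlier results of these data known, and this contrast uses the same trans-zeatin libraries. Its counts are therefore not independent evidence. Trans-zeatin libraries were higher for 25 of the 26 genes, and the median direct difference was 1.53. SEN1 differed by 4.21 ± 0.22 (interval 3.75 to 4.67) and BCAT2 by 3.38 ± 0.15 (interval 3.07 to 3.70). Cis-zeatin alone raised 3 of the 26 and lowered 5, with a median of -0.13. Of the 11 nitrate transport genes 6 were lower and 3 higher after trans-zeatin than after cis-zeatin. NRT1.1 was lower after trans-zeatin than after cis-zeatin by 2.31 (interval -2.60 to -2.03) and NRT2.1 by 2.78 (interval -3.39 to -2.17), although cis-zeatin lowered both against the untreated roots, with log2 changes of -1.61 and -1.63. Light-harvesting genes were higher after trans-zeatin in 10 of 12 cases, and LHCA4 differed by 2.01 ± 0.14. Their summed level after cis-zeatin was 51.2, 52.7 and 55.4 CPM.

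In the aliphatic glucosinolate pathway 14 of 17 genes were lower after trans-zeatin, MYB28 by 2.23 (interval -2.47 to -1.99). Cis-zeatin alone lowered 13 of the 17 and raised 2, with a median of -1.01. Replication genes were lower after trans-zeatin in 10 of 11 cases, and cis-zeatin changed none of the 11 past edgeR's threshold (0 at an unadjusted p under 0.05), with a median of 0.06. Of the 19 aquaporin genes 8 were higher and 2 lower after trans-zeatin. TIP2;3 differed by 0.32 ± 0.16 (interval -0.02 to 0.66) and AGP30 by 0.06 ± 0.33 (interval -0.62 to 0.74), neither past the test, which does not show that the isomers act alike on them. The triterpene gene THAD, which belongs to a root-specific metabolic cluster, was raised by both and was lower after trans-zeatin by 0.37, a call lost without trans-zeatin replicate 1 (adjusted p 0.063, edgeR). The largest differences among genes of above-median abundance were those of SEN1, AT1G21400 (3.71 ± 0.15), BCAT2 and AT1G19530 (3.78 ± 0.24) on the higher side and of NRT2.1, NRT1.1, GSTF14 (-2.30 ± 0.17) and AT4G01390 (-2.96 ± 0.22) on the lower side.

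**Figure D4:**
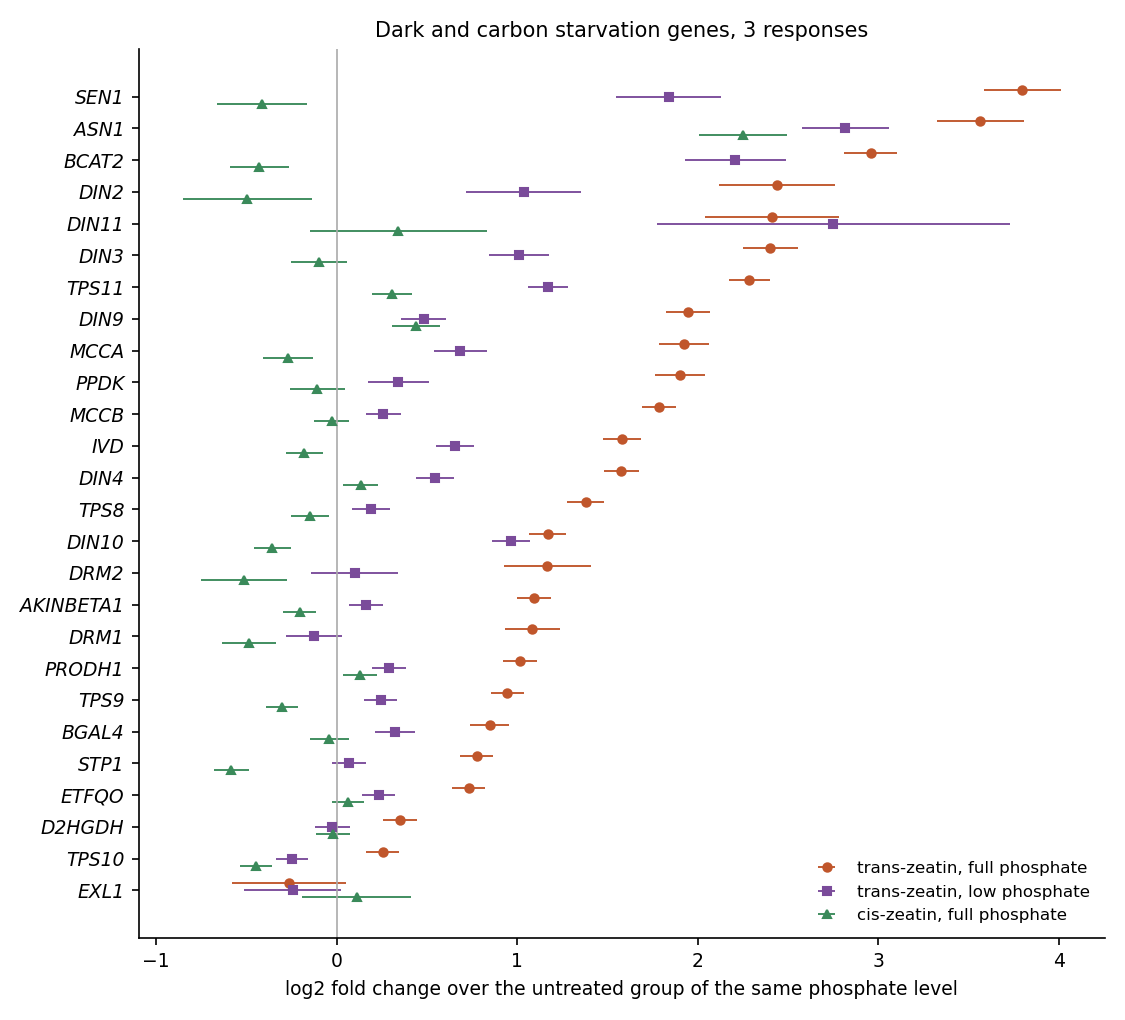
Log2 fold change with its SE for the 26 dark and carbon starvation genes in 3 responses: trans-zeatin in full phosphate, trans-zeatin in low phosphate and cis-zeatin in full phosphate, each over the untreated group of its phosphate level. The full-phosphate responses share their 3 untreated libraries. Trans-zeatin in full phosphate gives the rightmost point for all genes but DIN11 and EXL1.

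The trans-zeatin response depended on phosphate for many genes. Roots in 5 µM phosphate formed their own pair of untreated and treated groups, with 3 libraries each, and the difference of the responses was tested in the same fit. It passed for 4085 genes, 20.4% of those tested, with 1854 (9.28%) more positive in low phosphate and 2231 (11.2%) more negative. Trans-zeatin in low phosphate raised 13.8% of tested genes and lowered 18.4%. Of the 4826 genes that rose in full phosphate 1856 also rose in low phosphate, 38.5% of the full-phosphate list and 67.3% of the low-phosphate list, and 230 fell there. Of the 5049 that fell 2418 also fell in low phosphate, 47.9% and 65.7% of the lists, and 100 rose there. The libraries compared across phosphate levels did not have like counts of discarded reads, with 22738 to 58614 in low phosphate. A difference in handling and the phosphate level therefore cannot be told apart in these values. Within low phosphate the untreated libraries had 22738 to 23728 and the trans-zeatin libraries 23120, 58614 and 51830, so handling and trans-zeatin are partly mixed there. Chi-square per degree of freedom between 2 trans-zeatin libraries was 6.96 to 20.68 in low and 3.05 to 4.78 in full phosphate. Whether this wider spread lowered the number of calls in low phosphate was not tested.

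Type-A regulators rose at both levels, 10 of 10 in low phosphate with a median of 2.11. ARR7 rose more in low phosphate, by 1.28 ± 0.14 beyond its full-phosphate change, and ARR16 rose less (-1.03 ± 0.27), a call lost without full-phosphate untreated replicate 2 (adjusted p 0.051, edgeR). CYP735A2 rose more there (1.85 ± 0.16), and the fall of IPT3 was smaller (1.1 ± 0.18). The difference for ARR5 did not pass the test (0.29 ± 0.15, interval -0.04 to 0.61).

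The listed dark and carbon starvation genes rose less in low phosphate. This difference also uses the full-phosphate libraries known when the list was chosen, so its counts are not independent evidence. The difference was negative past the threshold for 20 of 26 genes and positive for none, and the median response there was 0.33, with 15 genes rising and 1 falling. SEN1 went from a log2 change of 3.80 to one of 1.84, a difference of -1.96 ± 0.38 (adjusted p 0.00107, edgeR). The difference did not pass for ASN1 (-0.75 ± 0.34) or BCAT2 (-0.75 ± 0.35). Nitrate transport genes did not move as 1 group in this contrast. The difference was positive for 4 of 11, negative for 2 and did not pass for 5, and the list medians were -0.56 in full and -0.53 in low phosphate. NRT1.1 fell less in low phosphate, by 2.4 ± 0.19, as did NRT2.1, by 3.16 ± 0.36. Further along, 12 of 20 nitrate reduction and glutamine genes had a more positive response there against 1 more negative. FRO2 fell by 3.64 in full phosphate and did not pass in low phosphate (-0.34 ± 0.24), a difference of 3.3 ± 0.31. CYP82C4 had no reads in the untreated and trans-zeatin libraries of low phosphate, so its response there was not measured.

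Many phosphate genes responded more negatively in low phosphate. In low phosphate trans-zeatin lowered 23 of the 28 and raised none, with a median of -1.52, and the difference was negative for 16 genes. The responses can start from unlike untreated levels. PHT1;1, for example, stood at 601, 638 and 606 CPM untreated in full phosphate and at 1224, 1042 and 1160 CPM untreated in low phosphate. How many listed genes share this was not counted. WRKY75 rose in full phosphate and did not pass in low phosphate (-0.21 ± 0.12), a difference of -1.29 ± 0.15. PHO1;H1 behaved in the opposite way, falling in full phosphate and not passing in low phosphate (-0.18 ± 0.12), with a difference of 2.48 ± 0.20. The trehalose-phosphate phosphatase gene TPPH rose at both levels and more in low phosphate, by 1.19 in full and by 3.74 in low phosphate (2.55 ± 0.18).

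Cell division genes were set side by side at both levels. Of the 11 replication genes, 10 fell in full phosphate and none passed edgeR's threshold in low phosphate (1 at an unadjusted p under 0.05), where their median was 0.04, and the difference passed for 10 of 11, for example 0.80 ± 0.15 for CDT1A, 0.88 ± 0.14 for TSO2 and 0.78 ± 0.17 for PCNA1. Mitotic genes fell at both levels, 14 of 15 in full and 13 of 15 in low phosphate, and the difference passed for 2 of them, CYCB1;1 (0.85 ± 0.17) and CYCA1;1 (0.64 ± 0.18), the second named after its value was seen. Aliphatic glucosinolate genes fell at both levels too, with a median of -2.52 in low phosphate, as did the water channels TIP2;3 (-3.72 ± 0.16) and PIP1;1 (-2.40 ± 0.13).

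**Figure D5:**
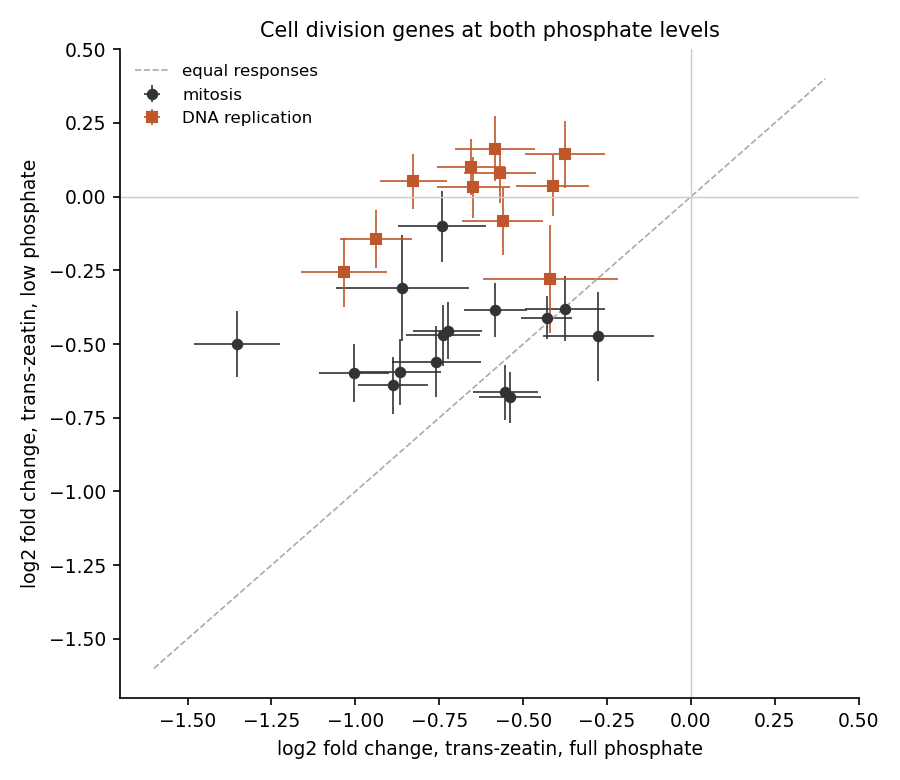
Log2 fold change after trans-zeatin in full phosphate (horizontal) and in low phosphate (vertical), each with its SE, for 15 mitotic and 11 DNA replication genes. The dashed line marks equal responses. Replication genes lie below 0 on the full-phosphate axis and near 0 on the low-phosphate axis, with a median of 0.04 there, while mitotic genes are below 0 on both.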

How the data were processed

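Poly(A) RNA of roots was sequenced in 18 libraries, 3 in each of 6 groups taken from the labels. The authors deposited 1 table of read counts per gene and a sequencing report. The submitters' processing notes list CASAVA 1.4, FastQC, the aligner HISAT2, the counter HTSeq, and edgeR. The genome build and strandedness are not given in the sources used here, so reads of overlapping or antisense genes may be mixed. The table is called normalized, but its values are whole and sum to 88.66 to 91.02% of the clean reads of each library, and they were treated as raw counts.

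Counts were tested with edgeR 4.0.16 and limma 3.58.1 in R 4.3.3 (TMM scaling, filterByExpr with a minimum count of 10, quasi-likelihood fit of all 18 libraries, Benjamini-Hochberg adjustment over 19982 genes, threshold 0.05). The contrasts were trans-zeatin against untreated, trans-zeatin against cis-zeatin, both in full phosphate, and the difference of the trans-zeatin response between phosphate levels. The common biological coefficient of variation was 8.5%. The test was tried on simulated data before use. Intervals on ratios of counts and floors cover counting error only.

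Replicate numbers were checked for pairing. In low phosphate the same-numbered untreated and trans-zeatin libraries deviated together (r across genes 0.267, 0.303 and 0.166), and in full phosphate they did not. Genes named are the 12 largest rises and falls, every member of the cytokinin lists, the 6 members of the other lists with the smallest adjusted p, the largest rise and fall of each gene family, and the 4 largest differences each way in the other contrasts. The members and lists were chosen with earlier results of these data known. Alternatives were DESeq2 1.42.0, limma-trend, median-of-ratios scaling, no filter, a minimum count of 50, a robust fit, only the compared groups, a replicate block, and leaving out each library. Promoter windows come from RefSeq's TAIR10.1 annotation, matched by locus tag.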

Additional observations from a re-analysis of the deposited data

Results flagged for a closer look

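Of the 358 named genes, 10 were called in opposite directions by trans-zeatin at the 2 phosphate levels. A difference between the levels past edgeR's test was a condition for entry, so it adds no support. HIS1-3, GAT1_2.1 and SRG3 were also among the 4 largest negative differences, a rule by which genes were named. HIS1-3, a linker histone induced by drought, stood at 27.7, 33 and 34.4 CPM untreated and 65.7, 68.9 and 73.2 CPM after trans-zeatin in full phosphate, and went from 36.3 ± 4.07 to 11.5 ± 2.71 CPM (mean ± SD, n = 3) in low phosphate. Its log2 changes were 1.13 and -1.66, a difference of -2.79. GAT1_2.1, a glutamine amidotransferase-like gene, stood at 15.3, 21.7 and 24.6 CPM untreated and 66.4, 71.8 and 67.1 CPM treated in full phosphate, against 24.1 ± 2.63 and 12.9 ± 2.4 CPM in low phosphate, a difference of -2.64. SRG3, annotated as senescence-related, stood at 19.85, 22 and 22.6 CPM untreated and 32.4, 34.8 and 27.05 CPM treated in full phosphate. In low phosphate it went from 435 ± 17.7 to 112 ± 20.8 CPM, so its responses start from unlike levels. SRG3 rose by 0.55 in full and fell by 1.96 in low phosphate, a difference of -2.5.

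The same order, up in full and down in low phosphate, was found for the nitrate-response repressor HHO2 (difference -1.19), the ferritin FER1 (-1.15), the zinc-finger factor ZAT10 (-1.13) and the ethylene factor EIN3 (-0.46). ZAT10 is also one of the 6 wounding markers, whose summed level in full phosphate was 140, 144 and 131 CPM before and 201, 224 and 210 CPM after treatment, and whether handling contributed was not tested. The reverse order was found for SDI2, a sulfur-deficiency gene (0.88), the ethylene receptor ETR2 (0.65) and the phenylalanine ammonia-lyase PAL2 (0.59). The fall of PAL2 in full phosphate was -0.22 ± 0.09 and lost its call when any 1 of 5 of the 6 libraries was left out, with edgeR's adjusted p between 0.0691 and 0.181. Among all 19982 tested genes, 230 rose in full and fell in low phosphate, 4.77% of those that rose in full phosphate. The reverse held for 100, 1.98% of those that fell in full phosphate.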

How the results depend on the processing

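None of the counts over all tested genes that answer a comparison moved by more than 1.5 times under any alternative run. No named gene past edgeR's threshold reversed its direction in these runs. This does not cover named genes that did not pass, some of which lie close to no change. Some counts within lists moved further, such as the rises of aquaporin genes, from 4 to 2 without untreated replicate 2. Trans-zeatin against untreated gave 9875 genes, 8507 to 9021 when 1 of the 6 libraries was left out, and 9316 to 11512 under the other settings. Genes at least 2-fold changed numbered 1958 to 2148 and 1571 to 2218 under the same settings. Trans-zeatin against cis-zeatin gave 8232 genes, 6687 to 7359 with a library left out and 7990 to 9881 otherwise. The dependence on phosphate gave 4085 genes, 3059 to 4517 with a library left out and 3862 to 4535 otherwise. With the replicate number as a block in the fit of the compared groups, the counts were 11484, 9566 and 4429. Same-numbered libraries in full phosphate did not deviate together (r 0.023, -0.038 and 0.074 for untreated and trans-zeatin), so this block adds a number that the samples do not share. The block ended no call on the phosphate differences given in the report, and 5 such calls among the named genes. It gives a replicate number the same effect at both phosphate levels, whereas the numbers pair in low phosphate only. What a block for low phosphate alone would do was therefore not tested. Of the 358 named genes, 19 lost their call on trans-zeatin against untreated at least once when a library was left out, 44 on the isomer difference and 27 on the phosphate difference. As an alternative chosen after seeing the data, the list counts were repeated without untreated replicate 2, the library with the highest shoot markers. The rises of light-harvesting genes then went from 7 to 10, those of suberin genes from 9 to 7 and those of aquaporin genes from 4 to 2, and the falls of nitrate transport, phosphate and aquaporin genes from 9, 11 and 12 to 8, 10 and 10. Fitting only the compared groups gave 2 rises of Casparian strip genes and 1 fall of a suberin gene in place of none, 2 falls of type-B regulators in place of 1, and a phosphate list median of -0.34 over the 25 genes then tested. Median-of-ratios scaling moved the median of all genes from -0.005 to 0.011. The depth limits genes with few reads, such as IPT7, S8H, NCED5 and CYP79F1, whose fold changes are uncertain.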

Other observations

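Several gene groups outside the comparisons above were counted too, beside 24.2% of all tested genes rising and 25.3% falling. Of 266 cytosolic ribosomal protein genes, 134 fell and 39 rose, with a median log2 change of -0.29, against 0.03 for trans-zeatin in low phosphate, and the difference was more positive in low phosphate for 76 and more negative for 16. Wall protein families differed. Of these, 27 of 44 arabinogalactan and fasciclin-like genes fell and 4 rose (median -0.60), and 32 of 61 class III peroxidases fell and 11 rose (median -0.48), whereas of 22 expansins 7 rose and 5 fell (median 0.05) and of 25 xyloglucan endotransglucosylases 7 rose and 12 fell. XTH21, the deepest fall of the last family, went from 21.2, 18.8 and 16.7 CPM to 1.01, 0.542 and 0.833 CPM (-4.56 ± 0.21). Among transcription factors, 31 of 72 NAC genes (43.1%) rose and 8 fell, and 24 of 56 WRKY genes (42.9%) rose and 10 fell. Of 100 bHLH genes 32 rose and 31 fell. Of 69 ERF and AP2 genes 16 rose (23.2%) and 20 fell (29%). Of 80 MYB genes 20 rose (25%) and 17 fell (21.25%). The shares of the last 2 families are close to those over all tested genes. A search of annotation names for pentatricopeptide repeat genes, which serve organelle RNA, found 276 genes. It also caught genes outside that family, such as SNC4, annotated as suppressor of npr1-1 constitutive 4. Of the 276 genes found, 37 rose and 37 fell, 13.4% each way and below those shares. The count therefore does not describe pentatricopeptide repeat genes alone.

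Lists of root defence metabolism other than aliphatic glucosinolates gave different counts. Of 8 genes of ER bodies, the β-glucosidase stores of Brassicaceae roots, 7 rose. PYK10, their main enzyme, went from 19570, 24550 and 23090 CPM to 31350, 32740 and 33780 CPM (0.54 ± 0.10). Of 6 genes of the thalianol and marneral triterpene clusters, 5 rose, with THAD going from 659, 685 and 770.1 CPM to 1932, 2151 and 2262 CPM (1.58 ± 0.11). The tryptophan-derived indole glucosinolate genes were divided, 6 rising and 2 falling of 14, with CYP81F2 going from 9.75, 9.42 and 9.32 CPM to 31.8, 35.8 and 31 CPM (1.79 ± 0.14). PSK2, which encodes a precursor of the phytosulfokine peptide, went from 1.8, 3.5 and 3.06 CPM to 45.8, 43.5 and 44.5 CPM (4 ± 0.18), while PSK3 (-1 ± 0.21) and PSK1 (-0.83 ± 0.11) fell. The 11 clock genes were fixed as markers of time of day. Of them 3 rose (27.3%, beside 24.2% of all tested genes), led by ELF3 (0.91 ± 0.09), and 1 fell. Their summed level was 780, 789 and 810 CPM before and 1012, 1006 and 966 CPM after treatment. After cis-zeatin in full phosphate it was 821, 792 and 791 CPM. Whether time of day contributed, for example to the dark or light-harvesting values, was not tested.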
